A study of Mus musculus with 42 samples.

Results

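Differentiating mouse cells sorted on d5 of culture into a high and a low level of a GSC-GFP reporter were compared on arrays. The 6 arrays, 3 of d5 Ghigh and 3 of d5 Glow cells, were taken by their sample titles from a series of 42 arrays. The cells came from 1 dual-reporter mouse embryonic stem cell (mESC) line, in which GFP reports the Gsc locus and RedStar the Hhex locus. Both populations were differentiated towards anterior definitive endoderm (ADE) in a monolayer with no treatment, and by their labels differed in the fluorescence gate alone. Glow cells carried a low and Ghigh cells a high level of GSC-GFP, and the labels name no gate on the HHEX reporter at d5. The series' description gives 3 independent experiments per condition. The other untreated populations of the same line used here are d5 G- cells, which lacked the reporter signal, and d4 G- and d4 G+ cells, which were divided into negative and positive cells only. Every group carries both reporter alleles. The comparison asks how the level of the reporter parts endoderm genes from mesoderm genes among cells that had already activated the reporter.

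Gsc encodes Goosecoid, a homeodomain transcription factor of the anterior primitive streak. In the gastrulating embryo the streak gives rise to definitive endoderm and mesoderm, with NODAL signalling known to favour endoderm at its anterior end, and BMP and WNT signalling known to favour lateral and extraembryonic mesoderm at its posterior end. Cells leave the epiblast by an epithelial to mesenchymal transition (EMT), and definitive endoderm cells later take up epithelial character again. Anterior endoderm then secretes antagonists of NODAL, WNT and BMP signals, with the transcription factors SOX17, FOXA2 and HHEX among its defining markers. In bulk RNA of a sorted population, fewer cells that express a gene and less of its RNA per cell cannot be told apart.

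Values are log2 intensities as deposited, normalised over all 42 arrays, so that a difference of 1 means 2 times the signal. Per array, between 29817 and 34163 spots in Glow and between 33992 and 43252 spots in Ghigh passed the scanner's test for signal well over background, and 0 spots were saturated. The part of this gap in the results was not tested. Differences are of group means (n = 3 each) with the standard error (SE) of a limma fit to all 42 arrays. A gene was called where at least 1 of its probes had a Benjamini-Hochberg adjusted p of at most 0.01 and a log2 difference of at least 1.5 in size, with an adjusted p of at most 0.05 as a second, looser rule. Replicates with the same number deviated together from their group means, which is why differences within replicate numbers are printed as well, and adjusted p values called paired come from a limma fit with the replicate number within each sorted day as a block, a choice made after the data were seen. A block chosen earlier, the replicate number over all untreated arrays, gave larger p values for many genes, and is called the wider block. Replicate 3 stood apart from replicates 1 and 2 in both populations. It was scanned on another day than they were, and no slide held arrays of both populations, so that slide and population cannot be separated within a slide.

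The labels were checked first on Gsc, the gene the gate was set on, which is therefore no finding. Its log2 level in replicates 1, 2 and 3 was 9.46, 10.21 and 12.41 in Glow and 12.23, 12.57 and 14.06 in Ghigh. Each Ghigh array exceeded the Glow array of the same number, by 2.77, 2.37 and 1.65, although Glow replicate 3 lay above Ghigh replicate 1, so that the groups overlapped. The difference of the means was 2.26 (SE 0.47, 4.79-fold), with a limma adjusted p of 0.0144, past the looser rule only, and a paired limma adjusted p of 5.96e-05. In d5 G- cells the mean level was 9.0, below that of Glow cells at 10.69 and of Ghigh cells at 12.95. The order of the means of the 3 populations is that of their gates.

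Of 21308 genes with a probe, 52 (0.244%) were higher and 7 (0.0329%) were lower in Ghigh than in Glow cells, and with the looser rule 72 (0.338%) were higher and 15 (0.0704%) lower. The genes higher in Ghigh included transcription factors and secreted proteins of the endoderm, led by Sox17, Hnf4a, Prdm1 and Hhex, and genes outside every list of endoderm genes, led by Pga5, Hkdc1 and Irs4. The 7 lower genes were Enpp2, Tub, Sox2, Jph4, Prickle1, Tspan2 and Art4, none of which was on a list of mesoderm genes. Tspan2 was called on 1 of its 2 probes and Art4 on a probe other than its brightest, which differed by -0.77. Without regard to size or test, 1440 genes (6.76%) lay above and 1760 (8.26%) below without overlap of the groups. Paired by replicate number, 82 genes (0.385%) were higher and 35 (0.164%) lower, among them all 52 and all 7. With slide as a random block 45 genes were higher and 6 lower. Leaving out 1 of the 6 arrays gave 27 to 105 higher and 1 to 27 lower genes, with the lowest counts of higher genes without Ghigh replicate 3 or Glow replicate 2, and the highest without Glow replicate 3. These calls rest on the spread shared by all 14 groups: in a limma fit to the 6 arrays alone 0 genes were called in either direction, with 3395 of 55681 probes at an unadjusted p under 0.05 and a lowest adjusted p of 0.0517. Permutation of 3 arrays against 3 gives no two-sided p under 0.1, so p values of single genes are those of limma.

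Among 20 transcription factors of anterior and definitive endoderm, 4 were called higher and 0 lower at the stricter rule, 6 and 0 at the looser, of which Gsc itself was 1. In 10 of them all Ghigh arrays lay above all Glow arrays, and in 0 below, against 6.76% and 8.26% of all genes. Sox17, a defining factor of definitive endoderm, read 9.50, 9.10 and 9.62 in Glow and 12.21, 12.11 and 12.82 in Ghigh. No Glow array reached the level of any Ghigh array, and the mean was 7.86-fold higher in Ghigh (log2 difference 2.97, SE 0.43, limma adjusted p = 0.000127), with a difference of 3.04 on its second probe. Hnf4a, a nuclear receptor of gut and liver endoderm, read 7.61, 7.13 and 5.98 in Glow and 10.25, 9.43 and 8.69 in Ghigh. Replicate 3 held the lowest level in both gates, the differences within numbers were 2.64, 2.30 and 2.71, the groups did not overlap, and the mean difference was 2.55 (SE 0.39, limma adjusted p = 0.0004). Prdm1, a transcriptional repressor known in anterior endoderm and germ cell precursors, read 8.12, 8.20 and 8.58 in Glow and 10.08, 10.20 and 11.09 in Ghigh. All its Glow arrays lay below all its Ghigh arrays, with a difference of 2.16 (SE 0.28, limma adjusted p = 3.13e-05). Hhex, the locus of the second reporter, read 7.67, 7.93 and 9.50 in Glow and 9.71, 10.00 and 11.79 in Ghigh. It was higher in Ghigh within each number, by 2.04, 2.07 and 2.29, with a mean difference of 2.13 (SE 0.40, limma adjusted p = 0.00489). Leaving out 1 of the 6 arrays at a time ended the call of Hhex in 3 of 6 cases, with an adjusted p of up to 0.0925, and that of Sox17, Hnf4a and Prdm1 in 0 of 6. With the wider block Hhex passed the looser rule only, at 0.0123, as did Shisa2 at 0.0121 and Cfc1 at 0.0183.

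The remaining factors were less even across replicates. Foxa1 read 9.44, 9.79 and 11.51 in Glow and 11.84, 11.95 and 12.76 in Ghigh, a difference of 1.93 (SE 0.44) that passed the looser rule only (limma adjusted p = 0.0322, paired 0.000181). Foxa2, the forkhead factor most used to mark endoderm and node, read 10.49, 11.67 and 13.64 in Glow and 12.88, 13.22 and 14.27 in Ghigh. Within numbers it was higher in Ghigh by 2.38, 1.54 and 0.62, but its level in Glow replicate 3 exceeded that in Ghigh replicates 1 and 2, and the mean difference of 1.52 did not pass either rule (SE 0.63, limma adjusted p = 0.423, paired 0.0366). The head organiser factors Otx2 and Lhx1 had the same form, with differences of 2.67, 2.22 and 1.32 and of 1.95, 1.79 and 0.97 within numbers, means of 2.07 and 1.57, limma adjusted p values of 0.113 and 0.166, and paired values of 0.00232 and 0.0187. With the wider block Otx2, Foxa2 and Lhx1 had adjusted p values of 0.0599, 0.171 and 0.141, past neither rule. By contrast Gata4, Eomes and Mixl1, which are known to act in the streak in endoderm and mesoderm alike, differed by 0.17, 0.08 and 0.25, with adjusted p values of at least 0.957. Over the list the median difference was 1.33, against -0.02 over all genes, and 15 of 20 members were higher in Ghigh in all 3 replicate numbers, against 20.1% of all genes, while 0 were lower in all 3, against 24.3%. The median and the 15 include Gsc, whose difference was set by the gate and is no finding. Lists overlap in members, and are described by counts and medians with no test over the list.

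**Figure D1:**
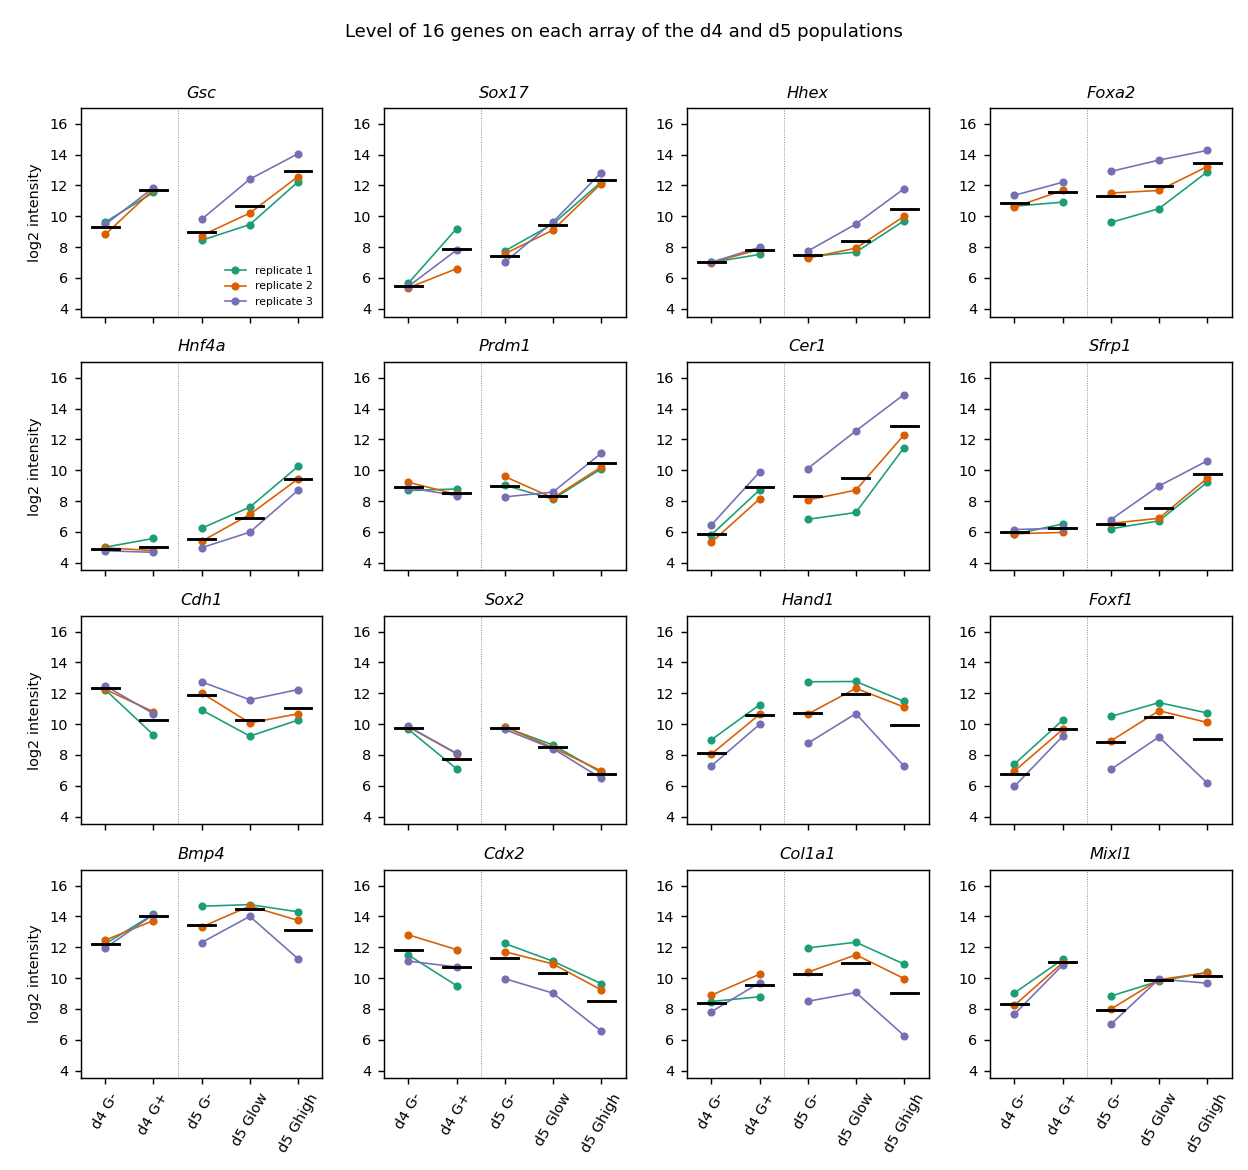
Log2 intensity (y axis) of 16 genes on each array of the d4 and d5 populations (x axis), with coloured points and lines for the 3 replicate numbers and a black bar for the mean of each population. Sox17, Hnf4a and Prdm1 were higher in Ghigh than in Glow in every replicate number, Hand1 and Col1a1 were lower, and replicate 3 lay apart from replicates 1 and 2 for Cer1, Hand1 and Foxf1.

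The sequence upstream of the genes higher in Ghigh was searched on both strands for short motifs. Windows held the 250 bases before the start of a gene in the RefSeq annotation of GRCm38.p6, a later build than the one the arrays were annotated on, and 39 of the 52 higher genes had one. Sox17 had no entry. The forkhead letters TGTTTAC were found upstream of 3 of 39 genes, Prdm1, Nepn and Akr1c13, against 3.17% of all 32851 windows. The bicoid-type homeodomain letters TAATCC, which Goosecoid is known to bind, were found upstream of 1 of 39 genes, against 6.25% of windows. The HNF4-type letters CAAAGTCCA were found in 3 windows, against 0.384% of all, but these belong to Pilra, Pilrb1 and Pilrb2, neighbouring near-identical copies whose probes may share signal, so that they are uncertain as separate cases. The T-box letters AGGTGTGA were found in 0 of 39, against 1.12% of windows. A match is a description of letters and says nothing of binding. The windows of Prdm1, Nepn and Foxa1 are shown because these genes differed at d5 and hold the forkhead letters, and that of Pilra for the HNF4 letters. Foxa1 passed the looser rule only and is not among the 39. Each is written 5′ to 3′ on the strand of the gene, with the matched letters in capitals, GTAAACA being TGTTTAC on the other strand.
Prdm1, chr10:44458749-44458998, minus strand: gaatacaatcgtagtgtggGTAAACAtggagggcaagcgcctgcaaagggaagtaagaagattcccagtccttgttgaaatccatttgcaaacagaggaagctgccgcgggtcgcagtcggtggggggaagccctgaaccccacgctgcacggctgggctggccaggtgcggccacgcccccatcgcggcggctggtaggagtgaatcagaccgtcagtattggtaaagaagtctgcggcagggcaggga
Nepn, chr10:52391358-52391607, plus strand: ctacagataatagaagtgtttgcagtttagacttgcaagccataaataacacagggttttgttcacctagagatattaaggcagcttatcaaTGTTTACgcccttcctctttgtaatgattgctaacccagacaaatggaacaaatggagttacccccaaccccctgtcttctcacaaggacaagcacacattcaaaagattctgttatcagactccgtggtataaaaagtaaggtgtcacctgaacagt
Foxa1, chr12:57546112-57546361, minus strand: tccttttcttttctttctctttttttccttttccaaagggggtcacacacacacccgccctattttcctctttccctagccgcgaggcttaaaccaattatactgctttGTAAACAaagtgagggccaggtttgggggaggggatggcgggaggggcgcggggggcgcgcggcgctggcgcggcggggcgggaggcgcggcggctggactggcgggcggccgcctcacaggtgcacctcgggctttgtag
Pilra, chr5:137836279-137836528, minus strand: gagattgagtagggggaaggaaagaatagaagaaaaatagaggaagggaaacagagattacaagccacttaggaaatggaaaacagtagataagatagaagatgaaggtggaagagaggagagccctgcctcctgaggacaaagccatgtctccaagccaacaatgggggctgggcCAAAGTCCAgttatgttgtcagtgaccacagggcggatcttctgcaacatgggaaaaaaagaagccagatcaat

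Genes for secreted antagonists and other products of anterior endoderm were the group with the largest median difference, 1.57 over 20 genes. Of these 7 were called higher and 0 lower. In all 3 replicate numbers 17 were higher in Ghigh, against 20.1% of all genes, and 1 was lower, against 24.3%. Cer1, which encodes the NODAL, BMP and WNT antagonist Cerberus, ranged widely, with 7.26, 8.71 and 12.55 in Glow and 11.47, 12.30 and 14.91 in Ghigh. Its level in Ghigh exceeded that in Glow by 4.21, 3.59 and 2.36 within numbers, and the mean difference was 3.39, or 10.5-fold. Glow replicate 3 lay above Ghigh replicates 1 and 2, the SE was 0.86 and the limma adjusted p 0.0658, past neither rule, while the paired value was 9.56e-05, that with the wider block 0.0488, and without replicate 3 of both populations the difference was 3.90 with a limma adjusted p of 0.00582. Lefty1, a NODAL antagonist, read 9.66, 11.03 and 13.56 in Glow and 12.17, 12.995 and 15.15 in Ghigh. Its differences of 2.51, 1.97 and 1.59 within numbers gave a mean of 2.02 (limma adjusted p = 0.21, paired 0.0029, wider block 0.164). Dkk1, an antagonist of WNT co-receptors, had its lowest Glow and its highest Ghigh level in replicate 3, at 10.70, 10.10 and 9.19 in Glow and 11.64, 11.39 and 12.24 in Ghigh, a difference of 1.76 with a limma adjusted p of 0.223.

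The WNT antagonists Sfrp1 and Shisa2 passed the stricter rule. Sfrp1, a secreted Frizzled-related protein, read 6.71, 6.88 and 8.98 in Glow and 9.21, 9.47 and 10.60 in Ghigh, a difference of 2.24 (SE 0.38, limma adjusted p = 0.00116). Shisa2, of the Shisa family of inhibitors of WNT and FGF receptors, read 8.05, 8.19 and 9.28 in Glow and 9.56, 10.02 and 11.50 in Ghigh, a difference of 1.85 (limma adjusted p = 0.00593). Glow replicate 3 was the highest Glow array for both genes and lay below every Ghigh array, and each call was lost in 3 of 6 fits that left out 1 array. Nepn, which encodes the small leucine-rich proteoglycan nephrocan, was not well above background on any Glow array and was so on all 3 Ghigh arrays, at 4.97, 4.77 and 4.96 in Glow and 6.41, 6.46 and 7.06 in Ghigh, so that its level was at least 3.09-fold higher in Ghigh (limma adjusted p = 0.00322). Clic6, of the chloride intracellular channel family, read 8.66, 8.35 and 8.02 in Glow and 10.86, 10.38 and 11.02 in Ghigh and was 5.31-fold higher (SE of the log2 difference 0.27, limma adjusted p = 3.86e-06). Prss12, a secreted serine protease, read 10.05, 9.90 and 9.75 in Glow and 12.23, 11.88 and 12.01 in Ghigh, with close replicates and a difference of 2.14 (limma adjusted p = 0.00349), yet its call was lost in all 6 fits that left out 1 array. Nepn stayed called in 3 and Clic6 in all 6 of these fits. The other called members were Tspan7, a tetraspanin, at 1.67 (limma adjusted p = 0.000337), which stayed called in 4 of 6 such fits, and the WNT receptor gene Fzd5 on 1 of its 2 probes. Cxcr4, a chemokine receptor used as a surface marker of definitive endoderm, was not called, at 9.99, 9.57 and 9.35 in Glow and 10.12, 10.02 and 10.10 in Ghigh, a difference of 0.45 (limma adjusted p = 0.877).

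**Figure D2:**
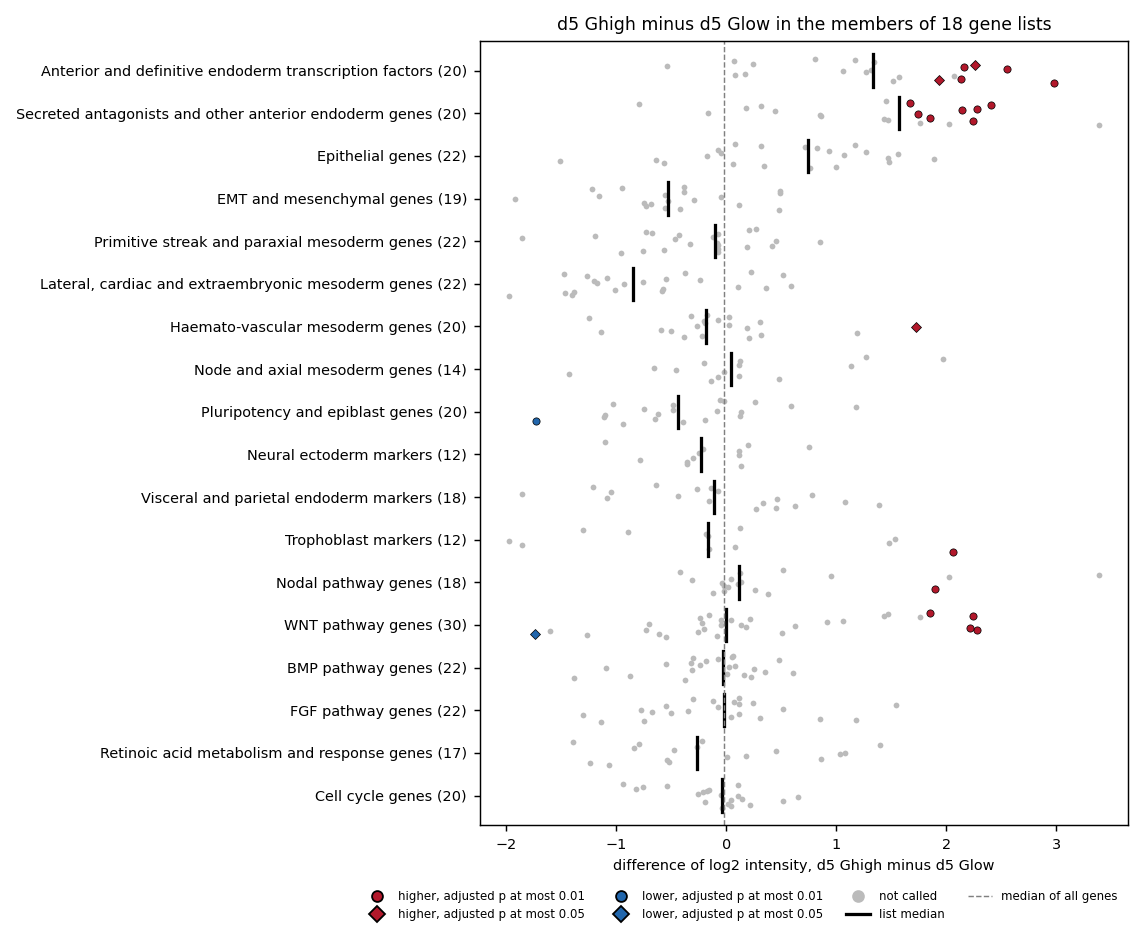
Difference of log2 intensity, d5 Ghigh minus d5 Glow (x axis), for each member of 18 gene lists (y axis, number of measured members in brackets), with coloured points for called genes, grey points for others, a black bar for the list median and a dashed line at the median of all genes, -0.02. The medians of the 2 endoderm lists lay at 1.33 and 1.57, and that of lateral, cardiac and extraembryonic mesoderm genes lay at -0.84. The list of endoderm transcription factors includes Gsc, on which the gate was set.

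The 3 largest differences among called genes belonged to genes outside the endoderm lists. Pga5, which encodes a pepsinogen of the stomach, read 6.95, 6.67 and 8.85 in Glow and 10.62, 10.40 and 12.63 in Ghigh, and was 13.2-fold higher in Ghigh, with differences of 3.66, 3.72 and 3.77 within numbers (SE 0.45, limma adjusted p = 9.62e-06). Hkdc1, which encodes a hexokinase, read 4.68, 5.49 and 6.67 in Glow and 8.51, 8.8 and 9.96 in Ghigh, a difference of 3.48, and was well above background on 1 of 3 Glow arrays. Irs4, an adaptor of the insulin receptor, read 6.18, 5.99 and 7.21 in Glow and 9.54, 9.56 and 10.63 in Ghigh, or 10.9-fold (limma adjusted p = 1.23e-06). Replicate 3 held the highest level of all 3 genes in both gates, and each gene differed by like amounts in every replicate number. The second probe of Irs4 differed by 1.36. Spink1, a trypsin inhibitor, read 10.34, 10.07 and 8.96 in Glow and 13.34, 12.92 and 11.97 in Ghigh, so that here replicate 3 had the lowest level in both gates. Gfi1, a zinc finger repressor of blood and gut cells, read 6.19, 5.61 and 5.92 in Glow and 8.52, 8.37 and 9.64 in Ghigh, a difference of 2.94 (limma adjusted p = 8.11e-06). The remaining genes of this group differed by between 2.45 and 2.96. They were Rgs8, a regulator of G protein signalling, Pilra, an immunoglobulin-like receptor, the transmembrane protein gene Tmem184a, Gckr, the regulator of glucokinase, Gpc4, a cell surface heparan sulphate proteoglycan, Tph1, an enzyme of serotonin synthesis, and Dpysl3, a regulator of the cytoskeleton, with limma adjusted p values between 1.99e-07 and 0.00216. Of the 15 genes with the largest differences among those called with no overlap of the groups, 14 stayed called in every fit that left out 1 of the 6 arrays, Rgs8, whose second probe differed by 1.20, being the exception.

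**Figure D3:**
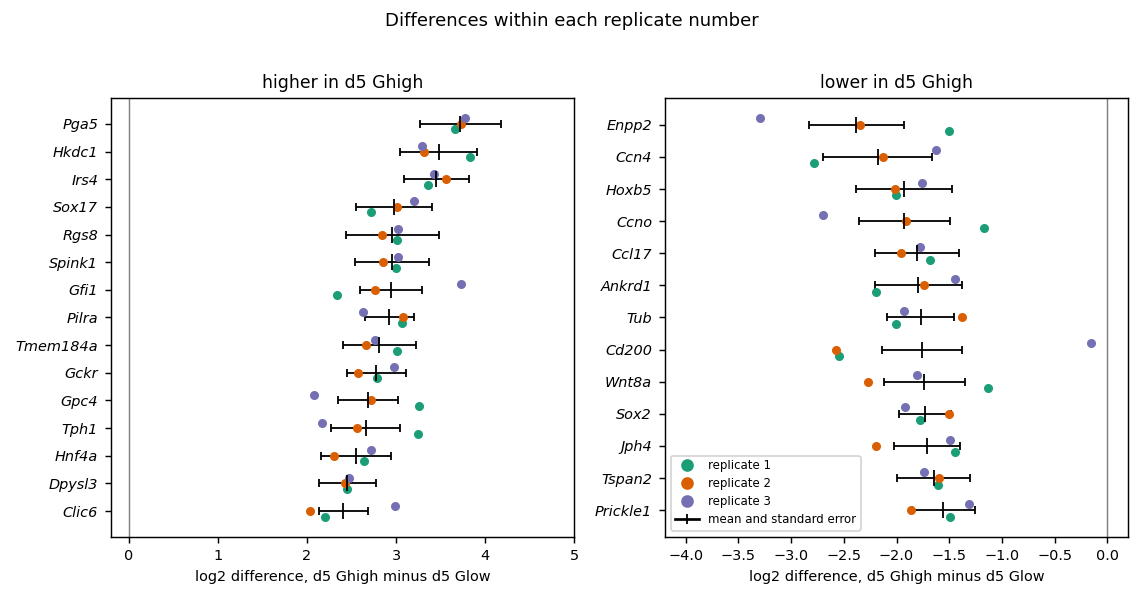
Difference of log2 intensity within each replicate number, d5 Ghigh minus d5 Glow (x axes), for the called genes with the largest differences in each direction (y axes), with coloured points for the 3 numbers and black bars for the mean difference and its standard error. The 3 numbers of Pga5, Irs4, Spink1 and Dpysl3 lay close together, those of Enpp2 and Ccno lay apart, and the point of Cd200 in replicate 3 lay near 0.

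Genes of lateral, cardiac and extraembryonic mesoderm read lower in Ghigh in most replicate numbers, but no difference passed either rule in the fit without a replicate block. Of 22 such genes 0 were called in either direction, while 15 were lower in Ghigh in all 3 replicate numbers, against 24.3% of all genes, and 4 were higher in all 3, against 20.1%. Without overlap of the groups 2 lay below and 1 above, against 8.26% and 6.76% of all genes. The median difference was -0.84, and within replicates 1, 2 and 3 it was -0.68, -0.76 and -0.98. Without Ghigh replicate 3 or Glow replicate 1 it was -0.45 and -0.54. Hand1, a basic helix-loop-helix factor of heart and extraembryonic mesoderm, read 12.76, 12.32 and 10.68 in Glow and 11.47, 11.11 and 7.27 in Ghigh. It was lower in Ghigh within each number, with differences of -1.29, -1.21 and -3.41, yet Ghigh replicates 1 and 2 lay above Glow replicate 3, and the mean difference of -1.97 had an SE of 0.83 and a limma adjusted p of 0.429 (paired 0.00651). In the paired fit Hand1 passed the stricter rule as lower in Ghigh, the 1 gene of this list called there. With the wider block the adjusted p of Hand1 was 0.193, past neither rule. Hand2, its relative in heart and limb, read 10.95, 10.11 and 8.68 in Glow and 9.92, 9.04 and 6.57 in Ghigh, a difference of -1.41 (limma adjusted p = 0.471, paired 0.00392). Foxf1, a forkhead factor of lateral and allantoic mesoderm, read 11.39, 10.87 and 9.17 in Glow and 10.72, 10.11 and 6.19 in Ghigh, a difference of -1.47 (limma adjusted p = 0.587, paired 0.0283). In all of these replicate 3 held the lowest level in both gates and the widest gap between them.

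Bmp4, the ligand known to pattern posterior mesoderm, read 14.76, 14.67 and 13.999 in Glow and 14.29, 13.74 and 11.25 in Ghigh, and differed by -0.47, -0.93 and -2.75 within numbers (mean -1.38, limma adjusted p = 0.557, paired 0.0533). Its second probe differed by -0.11, and the second probe of Foxf1 by -0.43, so that the probes of these genes were unlike. Without replicate 3 of both populations the differences of Hand1, Foxf1 and Bmp4 were -1.25, -0.72 and -0.70, and the median of the list was -0.72. Smarcd3, a chromatin remodelling subunit of heart precursors, differed by -1.47 (limma adjusted p = 0.425, paired 0.000118). Tbx3, Msx1 and Bmp2 differed by -0.76, -0.24 and -0.37. Myl7, a myosin light chain of the atria, differed by 1.23, 1.16 and -0.62 within numbers.

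Other mesoderm lists had medians nearer 0. Of 22 primitive streak and paraxial mesoderm genes 0 were called, and the median was -0.11. In all 3 replicate numbers 7 were lower and 2 higher, against 24.3% and 20.1% of all genes. T, the streak factor Brachyury, read 9.22, 10.56 and 11.001 in Glow and 8.82, 9.45 and 9.64 in Ghigh, a difference of -0.96 (limma adjusted p = 0.594). Mesp1, of nascent mesoderm, read 11.45, 11.39 and 10.38 in Glow and 11.70, 11.13 and 8.13 in Ghigh, within numbers 0.25, -0.26 and -2.25, so lower in Ghigh in replicate 3. Tbx6 differed by -0.08, and Cdx2, a caudal homeodomain factor of posterior tissues and trophoblast, by -1.86 (limma adjusted p = 0.365, paired 0.0168). Of 20 haemato-vascular genes 1 was called, and only by the looser rule. This was Flt1, a VEGF receptor gene, which was higher in Ghigh at 10.71, 10.999 and 12.23 in Glow and 12.65, 12.76 and 13.70 in Ghigh, a difference of 1.72 (limma adjusted p = 0.0449). Kdr, the other main VEGF receptor gene, differed by 0.20, and by -0.72 on its second probe. Etv2, a factor that starts the haemato-vascular programme, differed by -0.38. The median of that list was -0.18.

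Epithelial genes had a positive and EMT genes a negative median, with 0 called in either list. Of 22 epithelial genes 14 were higher in all 3 replicate numbers and 3 lower, against 20.1% and 24.3% of all genes. Only 1 of them lay above and 0 below without overlap of the groups, against 6.76% and 8.26% of all genes. Their median was 0.74 (0.23 without Ghigh replicate 3, 0.37 without Glow replicate 1 and 1.14 without Glow replicate 3). Of 19 measured EMT and mesenchymal genes 3 were higher and 11 lower in all 3 replicate numbers, against 20.1% and 24.3% of all genes. Without overlap 1 of them lay above and 4 below, against 6.76% and 8.26%. Their median was -0.53 (-0.15 without Ghigh replicate 3, -0.35 without Glow replicate 1). Cdh1, which encodes E-cadherin, read 9.22, 10.08 and 11.58 in Glow and 10.26, 10.67 and 12.24 in Ghigh, a difference of 0.76 of the same sign within each number (limma adjusted p = 0.666, paired 0.0773). Cldn6, a tight junction claudin, read 7.12, 7.82 and 10.16 in Glow and 9.41, 9.94 and 11.41 in Ghigh, a difference of 1.89 (limma adjusted p = 0.0862, paired 0.000241, wider block 0.0542), called in the paired fit alone of these 3. Epcam, an epithelial adhesion molecule, differed by 1.00 and Cldn7 by 1.47, whereas Cldn3, of the same family, differed by -1.51. Replicate 3 carried the highest level of Cdh1, Cldn6 and Cldn7 in both gates. Among mesenchymal genes Col1a1, a fibrillar collagen chain, read 12.32, 11.51 and 9.06 in Glow and 10.90, 9.97 and 6.27 in Ghigh, a difference of -1.92 (limma adjusted p = 0.544). Snai1, the repressor of E-cadherin in EMT, read 10.63, 10.53 and 10.86 in Glow and 10.67, 10.51 and 9.18 in Ghigh, level in replicates 1 and 2 and lower in Ghigh in replicate 3. Cdh2, N-cadherin, differed by 0.48 in the other direction, with 0.47, 0.47 and 0.51 within numbers.

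Signalling genes differed at few points. Of 30 WNT pathway genes 4 were called higher, the receptors Fzd5 and Fzd8 and the antagonists Sfrp1 and Shisa2, and 1 was called lower by the looser rule, the ligand gene Wnt8a. Fzd8 read 6.28, 6.70 and 8.67 in Glow and 8.88, 8.99 and 10.44 in Ghigh, a difference of 2.22 (SE 0.42, limma adjusted p = 0.00583), and Fzd5 read 6.5, 5.67 and 8.36 in Glow and 8.35, 8.75 and 10.28 in Ghigh, a difference of 2.28 (SE 0.46, limma adjusted p = 0.0114). These are values of the brightest Fzd5 probe, which passed the looser rule only and whose groups overlapped. The stricter call of Fzd5 was on its second probe, which differed by 1.58. Wnt8a read 6.47, 7.85 and 7.76 in Glow and 5.33, 5.59 and 5.95 in Ghigh, a difference of -1.74 (SE 0.38, limma adjusted p = 0.0243). The list median was 0.00, and Fzd8 stayed called in 3 of 6 fits that left out 1 array. The ligand genes Wnt3 and Wnt5a differed by -0.55 and -1.27 with adjusted p values of 0.861 and 0.334, and Wnt3a was not well above background on any of the 6 arrays. Of 18 Nodal pathway genes 1 was called, Cfc1, which encodes the NODAL co-receptor Cryptic, at 12.10, 11.67 and 11.90 in Glow and 13.81, 13.46 and 14.09 in Ghigh. Its groups did not overlap (log2 difference 1.90, limma adjusted p = 0.00838), but the call was lost in all 6 fits that left out 1 array. Nodal itself differed by 0.44, 0.26 and 0.44 within numbers (limma adjusted p = 0.639), and the ligand genes Gdf1 and Gdf3 differed by -0.12 and -0.02. No member of the BMP, FGF or retinoic acid lists was called, and their medians were -0.03, -0.02 and -0.27. In the retinoic acid list Rarb, a receptor gene that retinoic acid is known to induce, differed by 1.40 (limma adjusted p = 0.0181), past the p of the looser rule and not its size, and Aldh1a2, an enzyme that makes retinoic acid, by -1.07 (limma adjusted p = 0.16).

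Of 20 pluripotency and epiblast genes 1 was called lower in Ghigh and 0 higher. In all 3 replicate numbers 8 were lower, against 24.3% of all genes, and 2 were higher, against 20.1%. The called gene was Sox2, a factor of epiblast and neural cells, at 8.65, 8.47 and 8.42 in Glow and 6.88, 6.97 and 6.49 in Ghigh. Its replicates lay close together in both gates and the groups did not overlap, with a difference of -1.73 (SE 0.25, limma adjusted p = 0.000127). Pou5f1, which encodes OCT4, read 9.41, 10.14 and 12.04 in Glow and 8.78, 9.6 and 10.38 in Ghigh, a difference of -0.94 (limma adjusted p = 0.765), and Nanog differed by -0.39. Enpp2, which encodes autotaxin, the enzyme that makes lysophosphatidic acid, had the largest decrease, with 7.35, 8.24 and 9.21 in Glow and 5.85, 5.90 and 5.91 in Ghigh. Its level varied among Glow arrays and hardly among Ghigh arrays (log2 difference -2.38, SE 0.45, limma adjusted p = 0.00538). Tub, Jph4 and Prickle1, a planar cell polarity gene, differed by -1.77, -1.71 and -1.56, with limma adjusted p values of 0.00279, 0.00312 and 0.00593. Of 6 fits that left out 1 array, Sox2 stayed called in all, Jph4 in 3, Tub and Prickle1 in 2 and Enpp2 in 1.

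Genes lower by the looser rule included Ccn4, a matricellular protein that WNT signals induce, at 7.56, 8.93 and 8.25 in Glow and 4.77, 6.80 and 6.62 in Ghigh (log2 difference -2.18, limma adjusted p = 0.0409). Hoxb5, a posterior Hox gene, read 7.19, 6.95 and 6.29 in Glow and 5.18, 4.94 and 4.53 in Ghigh, and its differences of -2.01, -2.02 and -1.76 within numbers gave an adjusted p of 0.0407, or 9.98e-05 paired. Ccl17, a chemokine gene, differed by -1.68, -1.95 and -1.77 within numbers (limma adjusted p = 0.0242, paired 3.73e-05). Ccno, Ankrd1 and Tspan2 differed by -1.92, -1.79 and -1.65, and Cd200, a membrane glycoprotein gene, by -2.54, -2.58 and -0.15, so that its call rested on replicates 1 and 2. Values of Tspan2 here are of its brightest probe, past the looser rule only (limma adjusted p = 0.0163), while its other probe passed the stricter rule. When paired, Ccn4, Hoxb5, Ccno, Ccl17, Ankrd1, Cd200, Wnt8a and Tspan2 passed the stricter rule, whereas with the wider block Ccl17 and Tspan2 passed it, at 0.00769 and 0.00233, and the others had adjusted p values between 0.0216 and 0.0473.

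Whether the reporter parted the same genes a day earlier was tested as the difference at d5, Ghigh minus Glow, minus the difference at d4, G+ minus G-. The gates differ, since d4 sets positive against negative cells and d5 sets a high against a low level among positive cells. At d4, 178 genes (0.835%) were higher and 322 (1.51%) lower in G+ cells. The difference was more positive at d5 for 196 genes (0.92%) and more negative for 102 (0.479%). Gsc itself differed by 2.41 at d4 and 2.26 at d5, a change of -0.15 between days (limma adjusted p = 0.976). Sox17 differed by 2.38 at d4 and Cer1 by 3.05, with changes of 0.60 and 0.34 to d5 (limma adjusted p = 0.804 and 0.968).

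Lateral mesoderm genes lay on opposite sides of 0 on the 2 days. The median of the lateral, cardiac and extraembryonic list was 1.28 at d4 and -0.84 at d5, and 2 of its members, Hand2 and Bmp2, had a more negative difference at d5 by the stricter rule. Hand2 differed by 2.53 at d4 and -1.41 at d5, a change of -3.93 (SE 0.88, limma adjusted p = 0.00958). Bmp2 changed by -3.19 (limma adjusted p = 0.00083), and Hand1 and Foxf1 by -4.49 and -4.40, with adjusted p values of 0.0317 and 0.0189. Gata4 and Mixl1, which were 3.40 and 2.71 higher in G+ than in G- cells at d4, differed by 0.17 and 0.25 at d5 (changes of -3.23 and -2.46, limma adjusted p = 0.0052 and 0.00297). The EMT gene Snai1 went from 1.97 at d4 to -0.55 at d5 (limma adjusted p of the change 0.00213).

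Epithelial genes lay the opposite way. Their median was -1.67 at d4 and 0.74 at d5, 11 of 22 were called lower in G+ at d4 and 0 higher, and 10 had a more positive difference at d5 and 0 a more negative one. Cdh1 went from -2.06 at d4 to 0.76 at d5, a change of 2.83 (SE 0.62, limma adjusted p = 0.00816). Cldn6 and Cldn7 changed by 4.08 and 3.88 (limma adjusted p = 0.000903 and 0.00129). Prdm1, Clic6, Pga5 and Irs4, which differed by -0.40, -1.02, 0.48 and -0.39 at d4, were higher in Ghigh at d5, with changes of 2.55, 3.42, 3.24 and 3.84 (limma adjusted p values between 1.02e-05 and 0.00306). The pluripotency list had a median of -2.0 at d4 and -0.44 at d5. Gdf3, a TGFβ family ligand of the epiblast, had the largest positive change among the named genes past the stricter rule, 4.36, from -4.37 at d4 to -0.02 at d5. Fgf3 had the largest negative one, -4.41, from 3.26 to -1.14, followed by Rgs5, Pcsk5, Fbln2 and Stard8 at between -4.35 and -4.11.

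**Figure D4:**
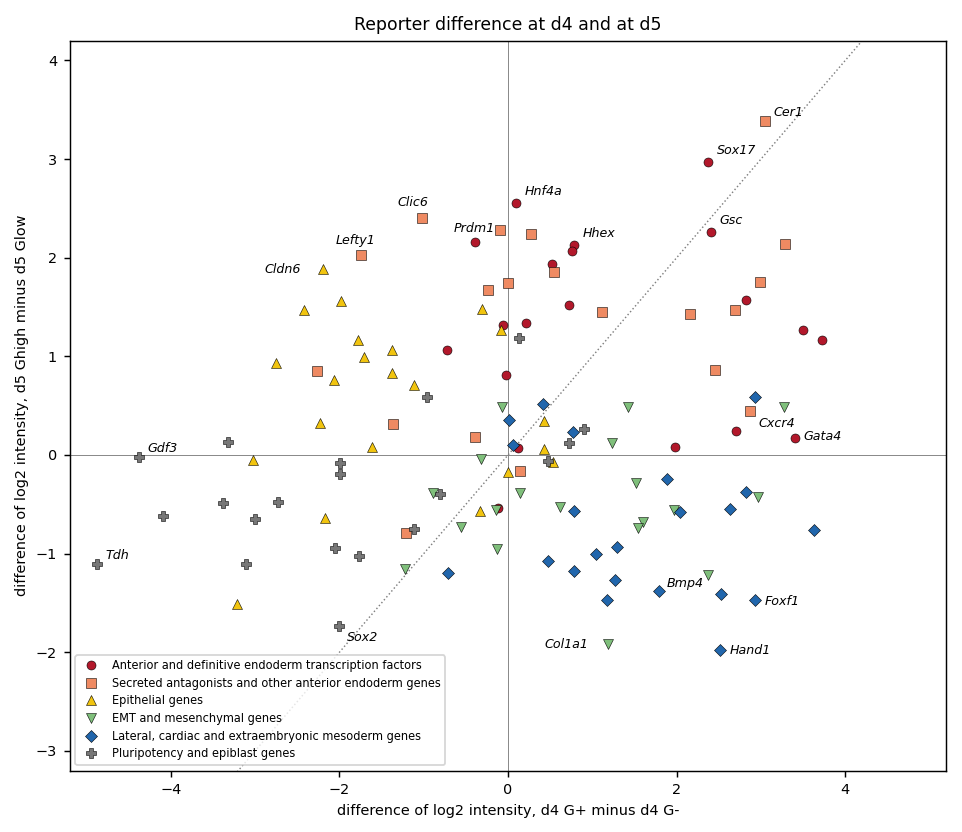
Difference of log2 intensity at d4, G+ minus G- (x axis), against that at d5, Ghigh minus Glow (y axis), for members of 6 gene lists marked by shape and colour, with a dotted line where both are equal. Lateral, cardiac and extraembryonic mesoderm genes lay mostly to the right and below 0, epithelial genes mostly to the left and above 0, and Sox17, Gsc and Cer1 near the dotted line.

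The place of Glow cells among the d5 populations is given by their difference from G- cells, which shares the Glow arrays with the comparison above, so that values are set side by side only. Glow exceeded G- for 30 genes (0.141%) and lay below it for 139 (0.652%). Leaving out 1 array gave 3 to 125 and 43 to 272 genes, the highest counts without G- replicate 1, so that these counts rest on single arrays. Sox17 rose by 1.96 from G- to Glow and by 2.97 from Glow to Ghigh, and Cfc1 and Prss12 by 1.84 and 2.07, then 1.90 and 2.14. Each of these 3 genes passed the stricter rule at both steps. Hand1 and Foxf1 lay 1.21 and 1.66 above G- in Glow cells (limma adjusted p = 0.826 and 0.451), and Cdh1 and Cldn7 differed by -1.60 and -2.15. Prdm1, Clic6 and Gpc4 differed by -0.66, -0.00 and -0.16 between G- and Glow, with adjusted p values of at least 0.377, against 2.16, 2.41 and 2.69 between Glow and Ghigh. Sox2 differed by -1.25 from G- to Glow (limma adjusted p = 0.00389), under the size of the rule, and by -1.73 from Glow to Ghigh.

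Markers of other cell types that the gates could hold had medians near that of all genes. Of 18 visceral and parietal endoderm markers, 12 trophoblast markers, 12 neural markers, 14 measured node genes and 20 cell cycle genes, 1 was called, Elf5 in the trophoblast list, and the medians lay between -0.23 and 0.04. Mean log2 levels of the visceral and parietal list were 7.93 to 8.33 in Glow and 7.77 to 8.32 in Ghigh arrays. Its defining marker Afp was not well above background on any Glow array, with levels of 4.54, 4.48 and 4.38 in Glow and 4.91, 4.81 and 4.49 in Ghigh, and Ttr read 5.89, 5.75 and 4.53 in Glow and 6.70, 5.90 and 4.93 in Ghigh. Of this list 5 members lay above without overlap of the groups, against 6.76% of all genes, and Lrp2 lay below at -1.09. The 5 were the apolipoprotein genes Apob, Apoa1 and Apoa4, at 1.39, 0.62 and 0.33, with Rbp4 and Cubn at 1.08 and 0.47. Of these Apoa1, Apoa4 and Cubn were not well above background on any Glow array, and the second probe of Cubn differed by -0.10. Apob had a limma adjusted p of 0.0444 (paired 0.00662) but missed the size of the rule. Elf5, an ETS factor of trophoblast that also serves epithelia, read 4.62, 5.84 and 5.68 in Glow and 7.14, 7.24 and 7.95 in Ghigh, a difference of 2.06 (limma adjusted p = 0.00112), whereas Tfap2c and Eomes of the same list differed by -0.16 and 0.08, and Tpbpa was not well above background on any of the 6 arrays. Of the 12 trophoblast markers 2 lay above and 1 below without overlap of the groups, against 6.76% and 8.26% of all genes. When paired, 2 of them were called higher and 1 lower, against 0.385% and 0.164%. Of the node genes 9 of 14 and of the neural markers 7 of 12 were well above background on all 6 arrays, Noto and Shh on 1 each and Pax6 on none. Mki67, Top2a and Ccnb1, of dividing cells, differed by -0.04, 0.04 and 0.21. The part of other cell types in the differences above was not tested.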

How the data were processed

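RNA of each sorted population was labelled with Cy3 and hybridised to 1-colour Agilent arrays. The intensity of each spot, as read here from the scanner files, is the median signal of the spot beside the median of its local background. The deposited log2 values, per the study's methods, were made by the authors with limma by subtracting background with the normexp method (offset 10) and then quantile normalising all 42 arrays together. The methods state that duplicate probes were averaged, but the deposited table has 59305 rows, 1 for each non-control spot. Recomputing the log2 values from the scanner intensities gave correlations with the deposited ones of 0.999979 to 0.999991.

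From the deposited log2 values, spots marked as outliers by the scanner software were left out (28 probe values on the 6 arrays), spots of a probe were averaged, and 55681 probes were fitted with limma 3.58.1 in R 4.3.3 with 1 mean for each of 14 groups and 28 residual degrees of freedom. Adjusted p values are Benjamini-Hochberg values over all 55681 probes, and tests are two-sided. Of 28066 probes with a RefSeq accession, 21850 of 22201 accessions were matched to a symbol through the RefSeq annotation of GRCm38.p6, and 27615 probes have no gene name here. The level and difference of a gene are those of its probe of highest average level across the 42 arrays. The array number limits the precision of each value. The fit was tested on simulated data with known changes.

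Deviations of same-numbered Ghigh and Glow arrays from their group means correlated at 0.44, 0.21 and 0.60, each array best with its own number, so that the numbers were taken to pair the arrays. Ghigh replicate 2 correlated nearly as well with Glow replicate 1, at 0.18. Glow replicate 3 correlated at -0.43 and -0.28 with Ghigh replicates 1 and 2. The correlations thus set replicate 3 apart, and part replicate 1 from replicate 2 less clearly. Genes were named by rule: the reporter loci with Cer1, Cxcr4 and Pou5f1, up to 15 genes of largest difference in each direction among those called and of 1 sign over every pairing of a Ghigh with a Glow array (at an adjusted p of 0.05 where fewer than 8 were called), called and first 3 members of each list, and 5 genes in each direction of the d5 against d4 contrast. Other members named were chosen after their values were seen. Some members are not reported here. The members and gene lists were chosen with earlier results of these data known. Alternatives changed the background correction, normalisation, filter, probes per gene, arrays fitted, blocks, threshold and replicates.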

Additional observations from a re-analysis of the deposited data

Results flagged for a closer look

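These genes had a reporter difference at d5, Ghigh minus Glow, that differed from the one at d4, G+ minus G-, in the limma contrast of both at an adjusted p of at most 0.01, with the change in log2 units given for each. The d4 gate sets positive against negative cells and the d5 gate a high against a low level, so that gate and day cannot be told apart. Genes of metabolism, receptors and regulation with a more positive difference at d5 were Irs4 (3.84), Tmem184a (4.01), Clic6 (3.42), Pga5 (3.24), Gpc4 (3.12), Hkdc1 (3.09), Gfi1 (2.68), Gckr (2.62), Prdm1 (2.55), Pilra (2.48), Dpysl3 (2.30) and Tspan7 (1.91). Each of them was also called higher in Ghigh than in Glow. A more positive difference at d5 was also found for the cell junction genes Cldn6 (4.08), Cldn7 (3.88) and Cdh1 (2.83), and for Gdf3 (4.36) and Cpsf4l (4.23), none of which was called between Ghigh and Glow. A more negative difference was found for the signalling ligand genes Fgf3 (-4.41), Bmp2 (-3.19) and Ccl17 (-3.2002), for the mesoderm and EMT regulators Hand2 (-3.93) and Snai1 (-2.525), and for Rgs5 (-4.35), Pcsk5 (-4.35), Fbln2 (-4.16) and Stard8 (-4.11). Of these Ccl17 was the gene called between Ghigh and Glow, by the looser rule.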

How the results depend on the processing

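Of 41 named genes called at the looser rule between Ghigh and Glow 0 changed sign in any alternative, and of 58 others 19 did, 14 of them when 1 array was left out. The 0 was largely set by the choice of genes and is no test of them. Called genes differed by at least 1.5, and many were named because their groups did not overlap, so that leaving out arrays could not turn their sign. Counts moved as follows (52 higher and 7 lower as reported). Normexp with an offset of 50 gave 34 and 1. Lower genes numbered 2 without background correction, 2 with processed signals scaled by the 75th percentile, 3 with slide as a fixed block and 15 at an adjusted p of 0.05. The fit to only the groups compared gave 0 and 0, and 5 and 0 with a replicate block in it. The replicate block within each sorted day gave 82 and 35, and a replicate block over all untreated arrays 54 and 8, of which 45 and 7 were shared. Leaving out 1 array gave 27 to 105 higher and 1 to 27 lower.

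Genes with a more positive and a more negative reporter difference at d5 than at d4 (196 and 102) numbered 127 and 64 with quantile normalisation over the untreated arrays, 128 and 65 in a fit to the untreated arrays, 66 and 30 in a fit to only the groups compared, 92 and 62 with slide as a fixed block, 324 and 217 at an adjusted p of 0.05, and 348 and 284 with the replicate block within each day. The negative ones numbered 61 with the 75th percentile scaling and 42 without replicate 3 of both d5 populations. Leaving out 1 array gave 88 to 284 and 36 to 144.

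Genes higher and lower in Glow than in G- (30 and 139) numbered 15 and 82 with an offset of 50, 0 and 0 in the fit to only the groups compared, and 1 and 55 with a replicate block in it. The higher ones numbered 18 with the 75th percentile scaling, 16 with quantile normalisation over the untreated arrays, 18 in the fit to these, 18 with slide as a fixed block, 53 at an adjusted p of 0.05 and 66 with the replicate block within each day, and the lower ones 227 without replicate 3 of both d5 populations. Leaving out 1 array gave 3 to 125 and 43 to 272. Genes lower in d4 G+ than G- numbered 188 with an offset of 50, and leaving out 1 array gave 109 to 202 higher and 175 to 383 lower.

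The Gsc difference of 2.26 passed the stricter rule with only probes well above background, with 1 probe per gene, and with either replicate block, passed an adjusted p of 0.05, and was 2.57 without replicate 3 of both d5 populations and 1.65 to 3.12 over leaving out 1 array. List medians that turned sign when 1 array was left out were those of trophoblast markers (-0.29 to 0.053, positive without Ghigh replicate 1 or Glow replicate 3), visceral and parietal endoderm markers (-0.19 to 0.12, positive without Ghigh replicate 3 or Glow replicate 1), retinoic acid genes (-0.30 to 0.026, positive without Ghigh replicate 3), BMP (-0.15 to 0.13), node (-0.08 to 0.19), FGF (-0.12 to 0.0042) and WNT genes (-0.02 to 0.10). The cause of these changes was not tested. With 3 arrays a population, and replicate 3 apart from the others, differences under the size of the rule were not resolved, and probes near background understate folds.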

Other observations

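Genes higher in Ghigh than in Glow at the stricter rule that were on no list, chosen here after their values were seen, included genes of cell shape and guidance. Vil1, the microvillus protein villin, differed by 1.96 in log2 units (limma adjusted p = 3.32e-05), with -0.14 between G+ and G- at d4. Myo5b, a motor of apical membrane traffic, differed by 1.76 (limma adjusted p = 0.000872), with -0.87 at d4. The axon guidance genes Slit1 and Sema5b differed by 2.12 and 1.83 (limma adjusted p = 0.00108 and 0.00116), with 0.03 and 0.39 at d4. Eya2, a transcriptional coactivator and phosphatase, differed by 2.19 (limma adjusted p = 0.00896), and Ambp, a plasma protein precursor made by liver, by 1.84 (limma adjusted p = 0.000719). At the looser rule Jag1, a NOTCH ligand, differed by 1.84 (limma adjusted p = 0.012), Chga, a secretory granule protein, by 1.71 (limma adjusted p = 0.0118), and Irx3, a homeodomain factor, by 1.67 (limma adjusted p = 0.0131).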
